A study of Mus musculus with 36 samples.

Results

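The colony-stimulating factor receptors are the surface proteins through which blood progenitors and myeloid cells sense M-CSF, G-CSF and GM-CSF. They are described here through the accessible chromatin around their 5 genes, Csf1r, Csf3r, Csf2ra, Csf2rb and Csf2rb2. The peaks of all 36 ATAC-seq libraries were merged wherever they shared at least 1 bp, and a merged region was given to a receptor gene when, of all protein-coding transcription start sites (TSSs), the nearest to its centre belonged to that gene. This rule found 34 of 105005 regions, of which 10 lay nearest to Csf1r, 8 to Csf3r, 4 to Csf2ra, 8 to Csf2rb and 4 to Csf2rb2. The rule used position alone and no measured level. Distances are given from the centre of a region to the nearest start of its gene, and the genes have more than 1 start. The start used lay within 280 bp of the one at the TSS region, except for the upstream regions of Csf2ra (1.04 kb apart) and the 2 intronic regions of Csf3r (2.74 kb apart).

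ATAC-seq marks open chromatin by the sites where a transposase can insert into DNA. Cells were sorted from the bone marrow of young female C57BL/6 mice, 10 weeks old, and aged female C57BL/6 mice, 20 months old, and no transgene or treatment was given to either age. Within the Lin- Sca-1+ c-kit+ gate, HSC were sorted as CD34- CD150+ CD48- Flt3-, MPP1 as CD34+ with otherwise the same markers, MPP2 as CD34+ CD150+ CD48+ Flt3-, MPP3 as CD34+ CD150- CD48+ Flt3- and MPP4 as CD34+ CD150- CD48+ Flt3+, while GMP were Sca-1- c-kit+ FcgR+ CD34+, MEP were Sca-1- c-kit+ FcgR- CD34-, and CLP were, unlike the rest, labelled IL-7+ (stained for the IL-7 receptor, per the study's methods) with low Sca-1 and low c-kit. HSC had 4 libraries per age and each of the other 7 fractions had 2. Marrow was pooled within an age before sorting, so the p-values below measure the spread between these libraries and not between mice, and a larger share of open cells cannot be told apart from wider opening in each cell.

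Csf1r is a receptor tyrosine kinase for M-CSF and IL-34, and it carries the signal on which monocytes and macrophages depend. The other receptors belong to the cytokine receptor family and have no kinase of their own, signalling through bound Jak kinases to Stat proteins. Csf3r pairs with itself to bind G-CSF and drives neutrophil production, Csf2ra binds GM-CSF, and Csf2rb is the beta chain that Csf2ra shares with the IL-3 and IL-5 receptors. Csf2rb2 is a mouse gene beside Csf2rb whose product serves the IL-3 receptor.

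Each library's value for a region was the highest fold enrichment of its peaks there, which is the read pileup at the peak summit over the local background, as the peak caller wrote it. The number of reads stacked at the summit was recovered from the same files. The number of peaks differed widely between fractions. It was 52576 to 63288 in the 4 GMP libraries, 9581 to 11041 in the 4 MEP libraries and 27087 to 40157 in the other 6 fractions. The genome-wide background, as distinct from the local one at each peak, was nonetheless 4.81 to 4.90 reads per kb of fragment in every library. Of the TSS regions of 6 GMP marker genes, 5 were called more often in GMP than elsewhere by the test described below, as were 37.8% of all regions tested. Some of these 5, and 1 of the monocyte marker regions counted below, had peaks in GMP alone. Such regions entered the test through their GMP peaks and had to pass it, so the counts alone do not check the GMP label. Of the HSC marker genes 4 could be tested and 0 were called more often in HSC, and of the CLP marker genes 4 could be tested, of which 0 were called more often in CLP and 1 more often in GMP. Among MEP marker genes, the TSSs of Gata1, Klf1 and Epor had a peak in no library, and that of Itga2b was called less often in MEP than elsewhere, so these marker genes could not be used to check the MEP label. TSS peaks of mature B cell markers (0 of 3 genes) and erythroid markers (0 of 2) were found in no library, and of 3 T cell markers 1 had a peak, in 1 library, but 3 of 4 neutrophil markers and 2 of 4 monocyte markers were called more often in GMP, a share of all regions of 37.8%. Their part in the results below was not tested.

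Most regions around the receptor genes were open in GMP, and many of them in GMP alone. A GMP library held a peak in 23 to 25 of the 34 regions, against 1 or 2 in an MEP library. HSC and CLP libraries held a peak in 5 to 9 of them, and among the multipotent progenitors the numbers were 7 to 12 for MPP1, 9 to 11 for MPP2, 8 to 10 for MPP3 and 7 to 9 for MPP4. Of the whole catalogue a GMP library had a peak in 48.4 to 58.5% of regions, an MEP library in 8.85 to 10.2%, an HSC library in 25.4 to 35.6%, and an MPP1 library in 30.4 to 36.8%. MPP2 libraries had 28.9 to 34.8%, and MPP3, MPP4 and CLP libraries at most 32%. At least 1 GMP library had a peak in 32 of the 34 regions, or 94.1%, whereas 69.8% of the whole catalogue had one. For 17 of the 34 (50%) no library outside GMP had a peak, against 24.1% of the catalogue. These 17 regions comprised 7 of Csf2rb, 5 of Csf1r, 4 of Csf3r and 1 of Csf2rb2. None was of Csf2ra.

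**Figure D1:**
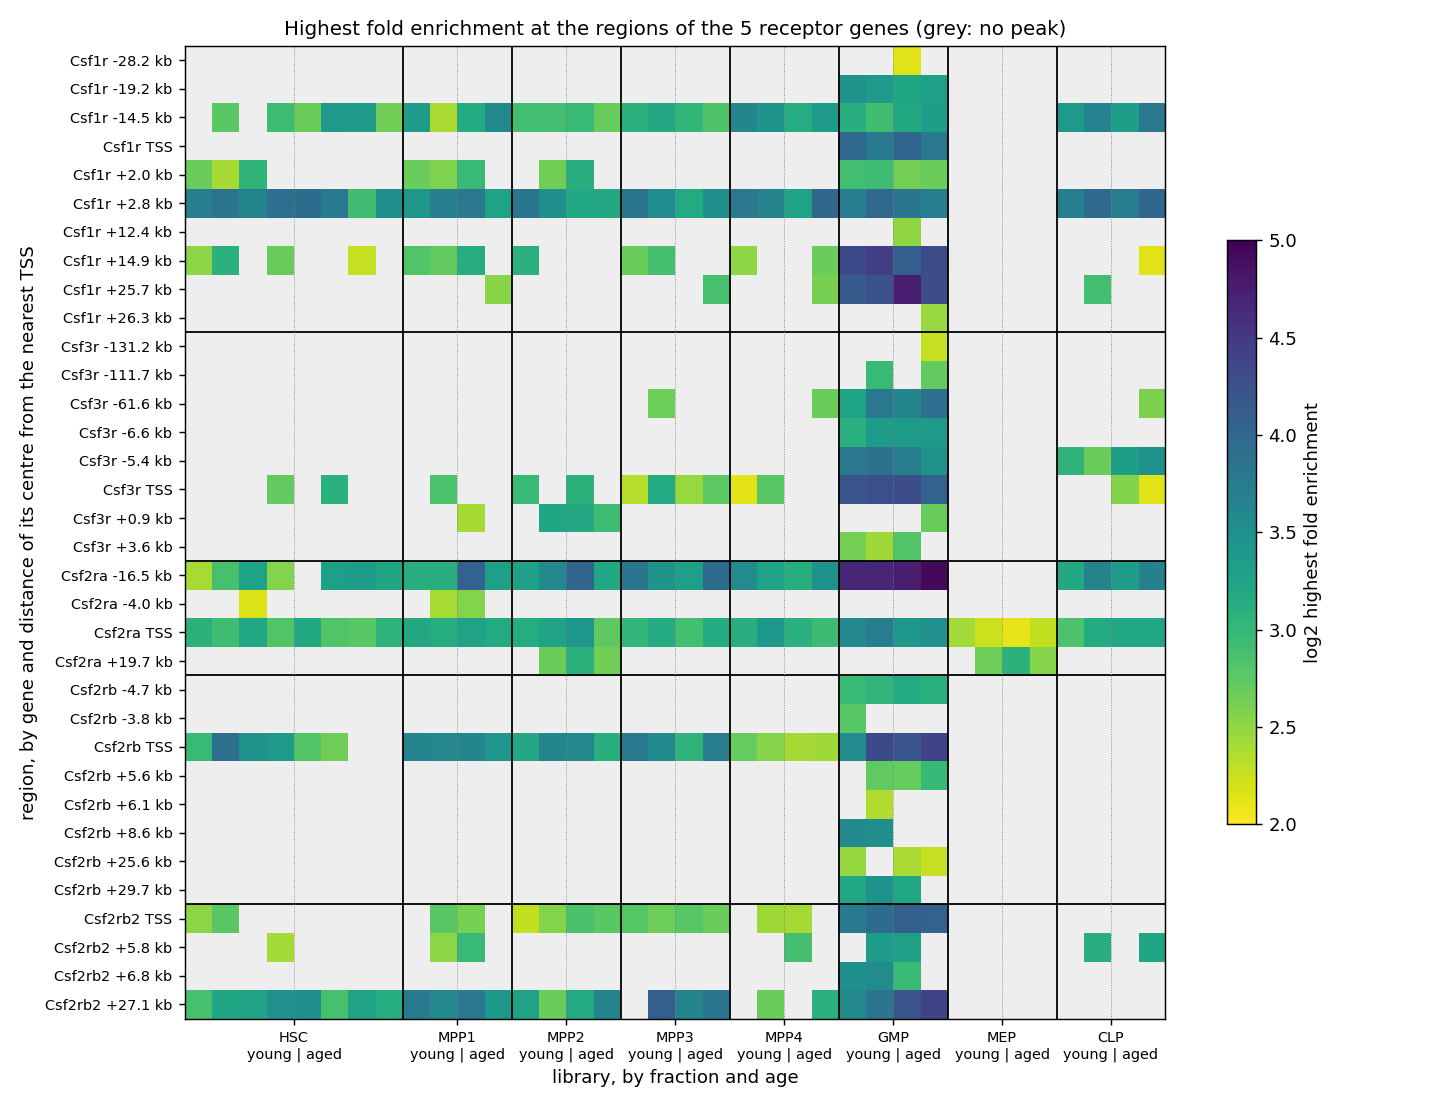
Highest fold enrichment on a log2 scale (color) in each of the 34 regions (rows, named by gene and distance from the nearest start of the gene in kb) in each of the 36 libraries (columns, grouped by fraction, young before aged). Grey marks a library without a peak. The 4 GMP columns are filled in 23 to 25 rows and the 4 MEP columns in 1 or 2.

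How often a region was called in 1 fraction was compared with all other libraries by Fisher's exact test, with p-values adjusted over the 79066 regions called in 2 to 34 libraries. Of the receptor regions, 27 could be tested. GMP had a peak more often than the rest at 15 of them, or 55.6%, where 37.8% of all tested regions passed the same test, and less often at 0 of them (1.38% of all). Of these 15, 11 had no peak outside GMP. Such regions entered the test through their GMP peaks alone and had to pass it, so the count of 15 is not support for a preference. They made up 40.7% of the tested receptor regions and 21.9% of all tested regions. Of the 16 tested receptor regions with a peak outside GMP, 4 passed, namely 2 of Csf1r and 2 of Csf3r, where 20.4% of all such regions passed. For the other 11 the counts of libraries are given below with no test. MEP had a peak less often at 5 of 27 regions, or 18.5%, against 14.1% of all regions, and more often at 0 (0.931% of all). CLP had a peak more often at 1 region (2.57% of all) and less often at 0 (0.419%). HSC passed at 0 regions in either direction, against 2.15% of all regions called more often and 0.836% called less often, and MPP1 to MPP4 passed at 0 regions, as did 0% of all regions. At an unadjusted p under 0.05 by the same exact test, GMP reached 17 regions more often (41.3% of all regions did), MEP 5 less often (22.7%) and 1 more often (1.57%), CLP 1 more often (8.31%) and 2 less often (4.63%), MPP2 2 more often (2.35%), MPP1 1 (4.13%) and MPP3 1 (0.863%). HSC and MPP4 reached 0, with 9.35% and 3.69% of all regions more often. The 15 GMP regions were 5 of Csf3r, 5 of Csf2rb, 4 of Csf1r and 1 of Csf2rb2. With an equal number of the strongest peaks taken from every library, 10 receptor regions remained and 3 passed for GMP. No share of all regions is given for that setting, and the shares above, from the full peak lists, cannot be set against it.

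**Figure D2:**
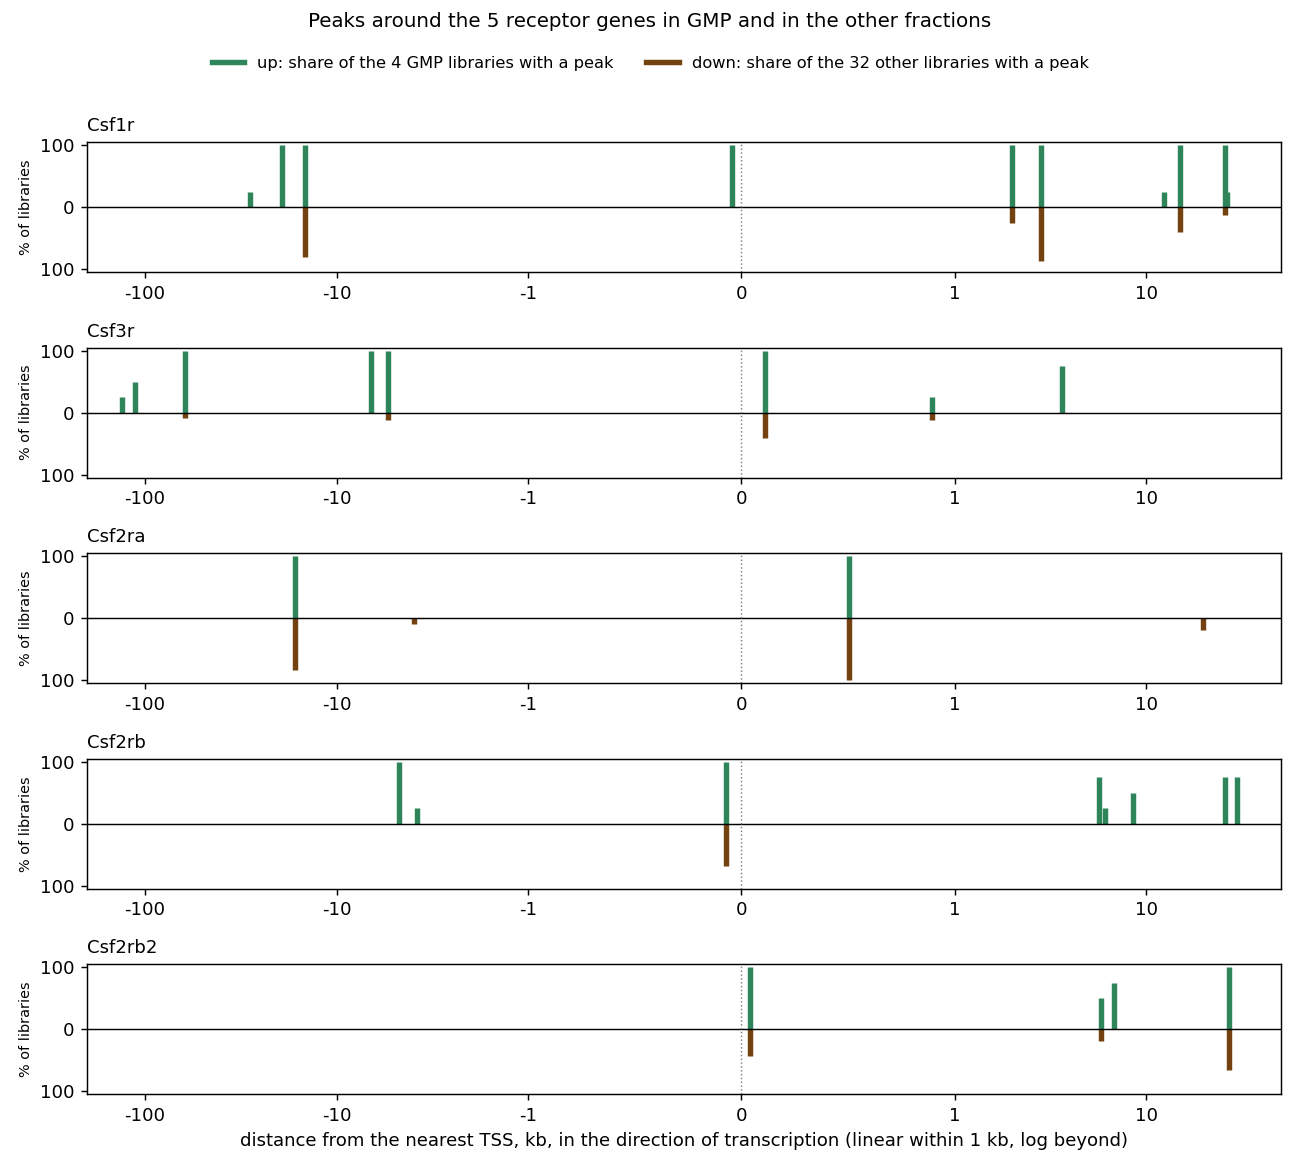
Share of libraries with a peak in each region against the distance of the region from the nearest start of its gene in kb, in the direction of transcription (linear within 1 kb, logarithmic beyond), with 1 panel per gene. Lines going up give the 4 GMP libraries and lines going down the other 32. Long lines on both sides stand at the Csf2ra TSS and at Csf1r +2.8 kb, and lines that go up only stand at the 17 regions called in GMP alone.

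Within 100 bp of the median summit position of each region, 8 short strings of bases from known binding sequences were searched on both strands. They were GAGGAAGT for PU.1, GGAAGT for the ETS family, TTGCNNAA for C/EBP, TGTGGT for RUNX, AGATAA for GATA, TTCNNNGAA for STAT proteins, TGANTCA for AP-1 and CAGCTG for E-box proteins, and every PU.1 string also holds the ETS string. The PU.1 string lay in 8 of the 34 receptor regions, or 23.5%, and in 8.44% of 104825 regions with a full window. The ETS string lay in 19 (55.9% against 32.6%) and the STAT string in 6 (17.6% against 5.68%). The RUNX string lay in 4 of the 34 (11.8% against 25.6%). The C/EBP (4 regions, 13.2% of all), GATA (4 regions, 10.3%), AP-1 (4 regions, 11.3%) and E-box strings (5 regions, 14.7% against 14.6%) were about as frequent as in all regions. A match describes the letters and is not a binding site.

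Csf2ra, the alpha chain for GM-CSF, had the most widely open start of the 5 genes. Its TSS region, chr19:61225827-61227915, covered the first exons of the gene and had a peak in all 36 libraries. The fold enrichment in GMP was 12.1 and 13.2 in young libraries and 10.6 and 11.2 in aged libraries. In the 8 HSC libraries it was 6.87 at the lowest, 7.96 at the median and 9.22 at the highest. In MEP it was 5.33 and 4.68 in young and 4.31 and 4.83 in aged libraries. The groups did not overlap, with every GMP library above every HSC library and every MEP library below. Ranked within their own library, GMP (percentiles 54.2 to 68.1) and HSC (35.6 to 63.9) did overlap, while MEP (4.41 to 21.1) stayed below both. The other fractions spanned 6.72 to 10.7.

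The upstream region of Csf2ra separated the fractions further. At chr19:61244605-61245156, intergenic and 16.5 kb upstream of the nearest start (17.5 kb from the start at the TSS region), the fold enrichment in GMP was 25.6 and 25.5 in young libraries and 26.9 and 30.5 in aged libraries. Outside GMP 27 of 32 libraries had a peak there, at 5.24 to 16.7, so that no other library reached the GMP range. The 5 libraries without a peak were the 4 of MEP and 1 aged HSC library. MEP was called less often at this region (adjusted p = 0.00142, Fisher's exact test). A region 19.7 kb downstream of the TSS, chr19:61207476-61207869, showed another distribution, with peaks in 3 of 4 MPP2 libraries (6.40 in young, 8.41 and 6.27 in aged) and 3 of 4 MEP libraries (6.35 in young, 8.41 and 5.85 in aged) and in no other library. It was the only receptor region other than the Csf2ra TSS with a peak in MEP, its test against the other fractions was not passed, and 8.06% of its 60-bp stretches occur elsewhere in the genome. The fourth region, 3.96 kb upstream, had a peak in 3 libraries of HSC and MPP1.

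The summit windows of these regions are shown because they carry the contrast between a start open in every fraction, an upstream region strongest in GMP and a downstream region of MPP2 and MEP. They were read from the mouse genome GRCm38.p6 (the mm10 build), plus strand, and capitals mark matches to the 8 strings.
Csf2ra TSS region, chr19:61226824-61227024: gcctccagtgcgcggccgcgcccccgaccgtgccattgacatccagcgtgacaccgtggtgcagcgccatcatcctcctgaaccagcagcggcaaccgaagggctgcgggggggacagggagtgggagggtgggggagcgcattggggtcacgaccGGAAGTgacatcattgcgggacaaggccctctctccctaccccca
Csf2ra 16.5 kb upstream, chr19:61244807-61245007: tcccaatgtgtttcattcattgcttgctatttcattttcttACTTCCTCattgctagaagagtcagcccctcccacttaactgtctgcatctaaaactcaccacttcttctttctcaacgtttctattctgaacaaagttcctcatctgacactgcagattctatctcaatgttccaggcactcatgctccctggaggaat
Csf2ra 19.7 kb downstream, chr19:61207565-61207765: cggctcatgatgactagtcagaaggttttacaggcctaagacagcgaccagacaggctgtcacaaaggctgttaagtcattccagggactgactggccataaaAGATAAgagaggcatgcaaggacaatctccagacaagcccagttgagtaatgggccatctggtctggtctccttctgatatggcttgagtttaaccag
The capitals are the ETS string in the TSS region and the GATA string in the downstream region. In the upstream region they are the PU.1 string, with the ETS string inside it, on the opposite strand. No other of the 8 strings lies in these windows. The GATA string was also found in 10.3% of all regions.

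**Figure D3:**
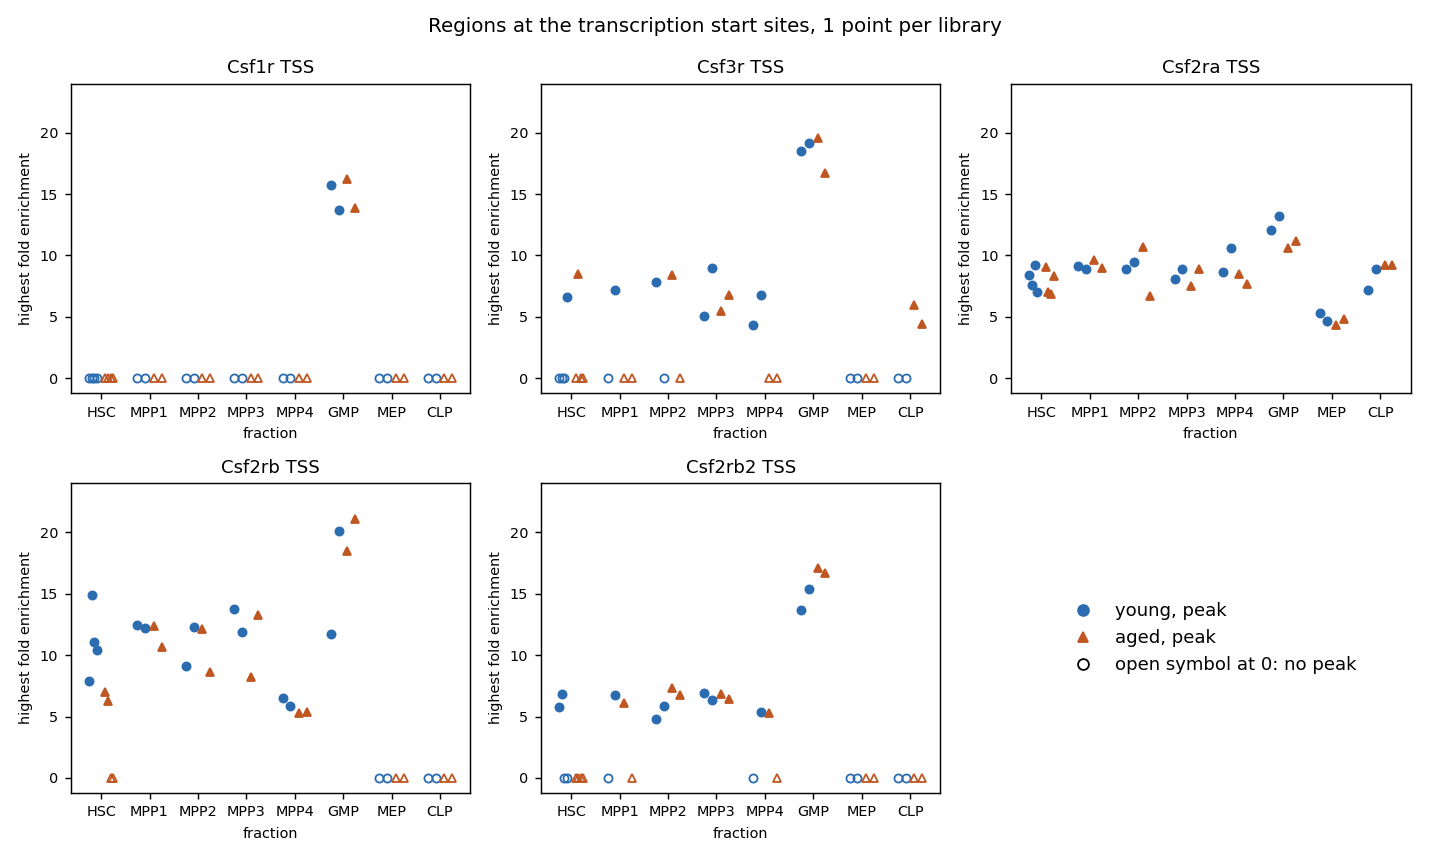
Highest fold enrichment at the TSS region of each of the 5 genes (1 panel per gene) by fraction, with 1 symbol per library, circles for young and triangles for aged libraries. Open symbols at 0 are libraries without a peak. Csf2ra has a peak in all 36 libraries and Csf1r in the 4 GMP libraries alone.

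Csf2rb, the shared beta chain, had a peak at its start in HSC, MPP1 to MPP4 and GMP and in no MEP or CLP library. Its TSS region, chr15:78325709-78326128, had a peak in 26 of 36 libraries. The fold enrichment in GMP was 11.7 and 20.1 in young libraries and 18.5 and 21.1 in aged libraries. In MPP1 it was 12.5 and 12.2 in young and 12.4 and 10.7 in aged, in MPP2 9.14 and 12.3 in young and 12.1 and 8.65 in aged, and in MPP3 13.8 and 11.9 in young and 8.25 and 13.3 in aged libraries. MPP4 was lowest of the fractions in which all libraries had a peak, at 6.52 and 5.84 in young and 5.29 and 5.36 in aged libraries, below every library of MPP1 to MPP3 and GMP. The lower young GMP library lay within the range of MPP1 to MPP3. MEP was called less often than the rest (adjusted p = 0.0261), while CLP, also without a peak, passed only when the 4 MEP libraries were left out, an alternative added after the data were seen.

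In HSC the Csf2rb TSS was the region where the ages stood apart. The fold enrichment in young HSC was 7.86, 14.9, 11.1 and 10.4, and in aged HSC it was 6.99 and 6.26 with no peak in the remaining 2 libraries. All 4 young libraries therefore stood above all aged ones. This separation was seen after the values were known, and among the 30871 regions called in at least 4 of the 8 HSC libraries 2.65% showed young above aged without overlap, with 1 of the 7 receptor regions among them, and 2.59% showed the opposite, with 0 of the 7. In the fractions with a peak in all libraries the ages overlapped at this region in MPP1 to MPP3 and GMP. In MPP4 both young libraries, 6.52 and 5.84, lay above both aged ones, 5.29 and 5.36. The log2 difference there was −0.21 (adjusted p = 0.826, limma), or −0.10 relative to each library's median. The median over all regions tested in MPP4 was −0.12. How many regions separated in this way in MPP4 was not counted.

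The remaining 7 regions of Csf2rb had peaks in GMP libraries alone. The strongest in its calls, 4.74 kb upstream at chr15:78320916-78321114, had a peak in all 4, with a fold enrichment of 7.88 and 8.15 in young and 8.90 and 8.56 in aged libraries. Regions 5.64, 25.6 and 29.7 kb downstream had a peak in 3 of the 4 libraries each, between 4.81 and 11. The region 8.55 kb downstream had a peak in both young GMP libraries, at 12.0 and 11.4, and in no aged one. Of its 60-bp stretches 26.2% occur elsewhere in the genome, and reads of such stretches cannot be placed with certainty. The other 2 regions had a peak in 1 GMP library each.

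Csf2rb2, the IL-3 receptor beta chain of the mouse, had its highest fold enrichment at the start in GMP. Its TSS region, chr15:78305436-78305924, showed a fold enrichment of 13.7 and 15.4 in young GMP and 17.1 and 16.7 in aged GMP libraries. Outside GMP 14 of 32 libraries had a peak, at 4.84 to 7.29, all of them HSC or MPP libraries. No library of MEP or CLP had one, and the GMP values lay above all others. The test of calls for GMP was not passed here (adjusted p = 0.222). A library without a peak is not without signal, since the weakest called summits of a library held 6 to 8 reads.

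The region of Csf2rb2 called most often lay 27.1 kb downstream of the TSS, at chr15:78278348-78278736, between genes. It had a peak in all 8 HSC libraries, at 7.30 to 11.3 with a median of 9.45. In GMP the fold enrichment was 12.0 and 14.1 in young and 18.8 and 20.9 in aged libraries, above every HSC library. In MPP1 it was 13.5 and 12.0 in young and 13.9 and 10.6 in aged libraries, and in MPP2 9.67 and 6.40 in young and 8.97 and 12.5 in aged. MPP3 had a peak in 3 of 4 libraries (12.5 to 17.1) and MPP4 in 2 of 4 (6.43 and 8.58). The 4 MEP and 4 CLP libraries had none, and MEP was called less often (adjusted p = 0.0374). In the first intron of Csf2rb2, 6.79 kb from the TSS, 3 GMP libraries and no others had a peak, at 7.89 to 11.7, and 19.4% of the 60-bp stretches there are repeated in the genome. A further region, 5.77 kb from the TSS in the same intron, had a peak in 8 libraries of HSC, MPP1, MPP4, GMP and CLP, at 5.35 to 10.1.

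The start of Csf2rb2 and the downstream region are shown for the letters they hold beside their opening in GMP. The promoter is from RefSeq (GRCm38.p6), on the minus strand from 250 bases before the start to 30 after it, and the summit window is from the plus strand of the same build. Capitals mark matches to the 8 strings.
Csf2rb2 promoter, chr15:78305692-78305971: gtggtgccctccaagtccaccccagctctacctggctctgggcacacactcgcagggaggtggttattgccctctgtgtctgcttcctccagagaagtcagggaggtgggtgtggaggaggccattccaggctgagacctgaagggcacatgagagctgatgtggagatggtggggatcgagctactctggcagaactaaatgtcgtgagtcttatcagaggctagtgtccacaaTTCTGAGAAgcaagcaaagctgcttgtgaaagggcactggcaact
Csf2rb2 27.1 kb downstream, chr15:78278447-78278647: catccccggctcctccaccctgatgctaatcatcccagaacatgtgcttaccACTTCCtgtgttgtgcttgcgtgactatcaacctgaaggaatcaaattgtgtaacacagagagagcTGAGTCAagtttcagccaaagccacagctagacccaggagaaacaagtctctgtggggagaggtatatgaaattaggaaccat
The capitals of the promoter are the STAT string. The PU.1 string, on the opposite strand, begins 28 bases after the start and runs past the end of the stretch shown. Of 32817 promoters, each taken from 250 bases before to 50 bases after a start, 3.20% held the PU.1 string, 23.8% the ETS string and 8.29% the STAT string. Of the 3 receptor promoters in the table, Csf2rb2 alone held any of these. The downstream window holds the ETS string on the opposite strand and an AP-1 string.

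Csf3r, the G-CSF receptor, had its strongest start in GMP. Its TSS region, chr4:126024333-126024991, in the 5′ end of the gene, showed a fold enrichment of 18.5 and 19.2 in young GMP and 19.6 and 16.7 in aged GMP libraries. In the other fractions 13 of 32 libraries had a peak, at 4.34 to 8.98, and the ranges did not overlap. All 4 MPP3 libraries were among the 13, at 5.05 and 8.98 in young and 5.51 and 6.75 in aged. HSC had a peak in 2 of 8 libraries, 1 of each age, at 6.6 and 8.49. The calls were spread over 7 fractions, and no fraction passed the test of calls at this TSS (adjusted p = 0.0928 for GMP).

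Upstream of Csf3r lay regions that divided GMP, CLP and the stem and multipotent fractions. At chr4:126018953-126019325, 5.41 kb upstream and intergenic, the fold enrichment in GMP was 13.9 and 14.6 in young and 13.2 and 11.1 in aged libraries. In CLP it was 8.29 and 6.41 in young and 9.99 and 11 in aged libraries. No other library had a peak there. GMP (adjusted p = 0.00485) and CLP (adjusted p = 0.0397) were both called more often than the rest, and this was the single receptor region that passed for CLP. The call for CLP was lost when any 1 CLP library was left out, when the 2 ages were tested apart, when only peaks with −log10 q of at least 10 were kept and when all regions were tested.

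Within the same stretch, 6.61 kb upstream at chr4:126017749-126018130, only GMP libraries had a peak, at 8.55 and 10.2 in young and 10.3 and 10.5 in aged. A distant region, 61.6 kb upstream, had 9.59 and 13.9 in young and 12.3 and 15 in aged GMP libraries, against 6.05 to 6.43 in the 3 other libraries with a peak, 1 each of MPP3, MPP4 and CLP (adjusted p = 0.00260). The region 112 kb upstream had a peak in 2 GMP libraries alone. In intron 4, a region 3.63 kb downstream of the second start of Csf3r, or 6.37 kb from the start at the TSS region, had a peak in 3 GMP libraries alone. The region in intron 3, 0.894 kb downstream of the second start and 3.64 kb from the start at the TSS region, differed in that 3 of its 5 peaks were in MPP2, at 9.40 in young and 9.10 and 7.66 in aged libraries, with 1 each in aged MPP1 and aged GMP. Its test against the other fractions was not passed. The last region, 131 kb upstream, had a peak in 1 aged GMP library.

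The pair of upstream regions is shown beside the promoter because they lie close together and differ in whether CLP libraries had a peak. The promoter is the RefSeq sequence (GRCm38.p6), and both windows come from the genome of that build, all on the plus strand, with matches to the 8 strings in capitals.
Csf3r promoter, chr4:126024409-126024688: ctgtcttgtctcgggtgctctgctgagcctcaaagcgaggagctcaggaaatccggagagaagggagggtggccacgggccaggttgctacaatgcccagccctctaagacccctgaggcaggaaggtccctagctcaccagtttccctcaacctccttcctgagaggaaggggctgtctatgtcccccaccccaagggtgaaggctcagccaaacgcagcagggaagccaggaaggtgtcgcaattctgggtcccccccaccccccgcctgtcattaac
Csf3r 5.41 kb upstream, chr4:126019073-126019273: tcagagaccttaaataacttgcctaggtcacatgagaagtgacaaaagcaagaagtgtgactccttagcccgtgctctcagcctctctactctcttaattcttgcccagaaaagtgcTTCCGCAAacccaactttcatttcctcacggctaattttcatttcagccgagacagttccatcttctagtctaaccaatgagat
Csf3r 6.61 kb upstream, chr4:126017753-126017953: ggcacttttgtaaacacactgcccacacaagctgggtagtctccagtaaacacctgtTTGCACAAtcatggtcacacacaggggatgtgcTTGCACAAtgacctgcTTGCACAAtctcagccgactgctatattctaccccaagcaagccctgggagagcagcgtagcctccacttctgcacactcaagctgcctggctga
All capitals are C/EBP strings. The window of the region called in GMP alone holds TTGCACAA 3 times. The window of the region called in GMP and CLP holds TTCCGCAA, which matches TTGCNNAA on the other strand with different letters at NN. The promoter holds none of the 8 strings. The C/EBP string occurred in 10.8% of all promoters.

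The regions of these cytokine receptors away from their starts differed in which fractions shared them with GMP. The region 16.5 kb upstream of Csf2ra was shared with every fraction except MEP, the region 27.1 kb downstream of Csf2rb2 with HSC and MPP1 to MPP4, and the region 5.41 kb upstream of Csf3r with CLP. In fold enrichment the median of GMP was above that of the sharing fractions in each of them. Ranked among all summits of its library, however, the region of Csf2rb2 lay at the percentiles 61.3 to 90.3 in GMP. In MPP1 it lay at 76.3 to 85.7 and in MPP3 at 85.4 to 92.1, so that its order did not hold on that scale. The region of Csf3r overlapped too, at 58.5 to 73.7 in GMP and 28.9 to 70.4 in CLP, and both aged CLP libraries (68.4 and 70.4) ranked above both aged GMP libraries (66.9 and 58.5). The region of Csf2ra lay at 96.2 or above in GMP and at 13.5 to 92.4 in the other libraries with a peak.

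**Figure D4:**
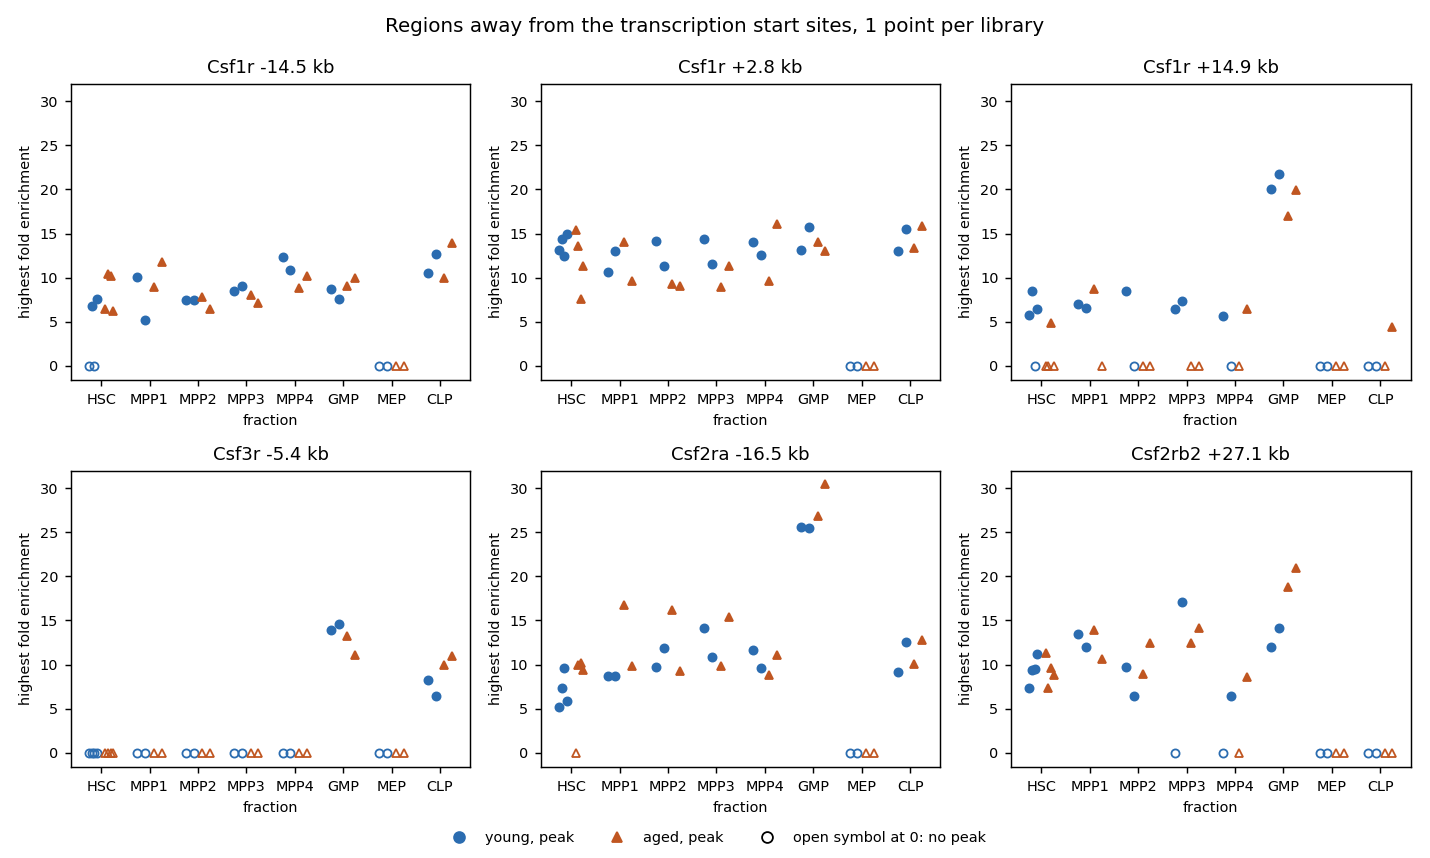
Highest fold enrichment at 6 regions away from a TSS (1 panel per region, named by gene and distance in kb) by fraction, with 1 symbol per library, circles for young and triangles for aged libraries. Open symbols at 0 are libraries without a peak. GMP stands above all other libraries in the panels upstream of Csf2ra and Csf3r and at Csf1r +14.9 kb, and within the range of the others at Csf1r +2.8 kb.

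Csf1r, the M-CSF receptor, combined a start that was open in GMP alone with an intronic region that was open nearly everywhere. Its TSS region, on chromosome 18 from 61105694 to 61105919, had a fold enrichment of 15.7 and 13.7 in young and 16.2 and 13.9 in aged GMP libraries. These peaks were deep, with 94 to 107 reads at the summit. None of the 32 other libraries had a peak there, whereas the starts of the other 4 genes had peaks in further fractions.

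In intron 2, which is known to hold the fms-intronic regulatory element of Csf1r, a region 2.81 kb from the TSS, chromosome 18 from 61108349 to 61108982, had a peak in all 32 libraries outside MEP and in no MEP library (adjusted p = 3.88e-04). The fold enrichment ran from 7.59 to 16.1. In HSC it was 7.59 at the lowest, 13.3 at the median and 15.4 at the highest, and in GMP it was 13.1 and 15.7 in young and 14.1 and 13 in aged libraries. The fractions overlapped. The reads at the summit did not, since GMP had 86 and 108 in young and 92 and 86 in aged libraries, whereas the other 28 libraries had 18 to 68. The local background against which the caller set them was 5.61 to 5.93 reads in GMP and 1.5 to 3.36 reads elsewhere. A neighbouring region of the same intron, 1.98 kb from the TSS, had a peak in all 4 GMP libraries (6.17 to 7.62) and in 8 libraries of HSC, MPP1 and MPP2 (adjusted p = 0.0264 for GMP).

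**Figure D5:**
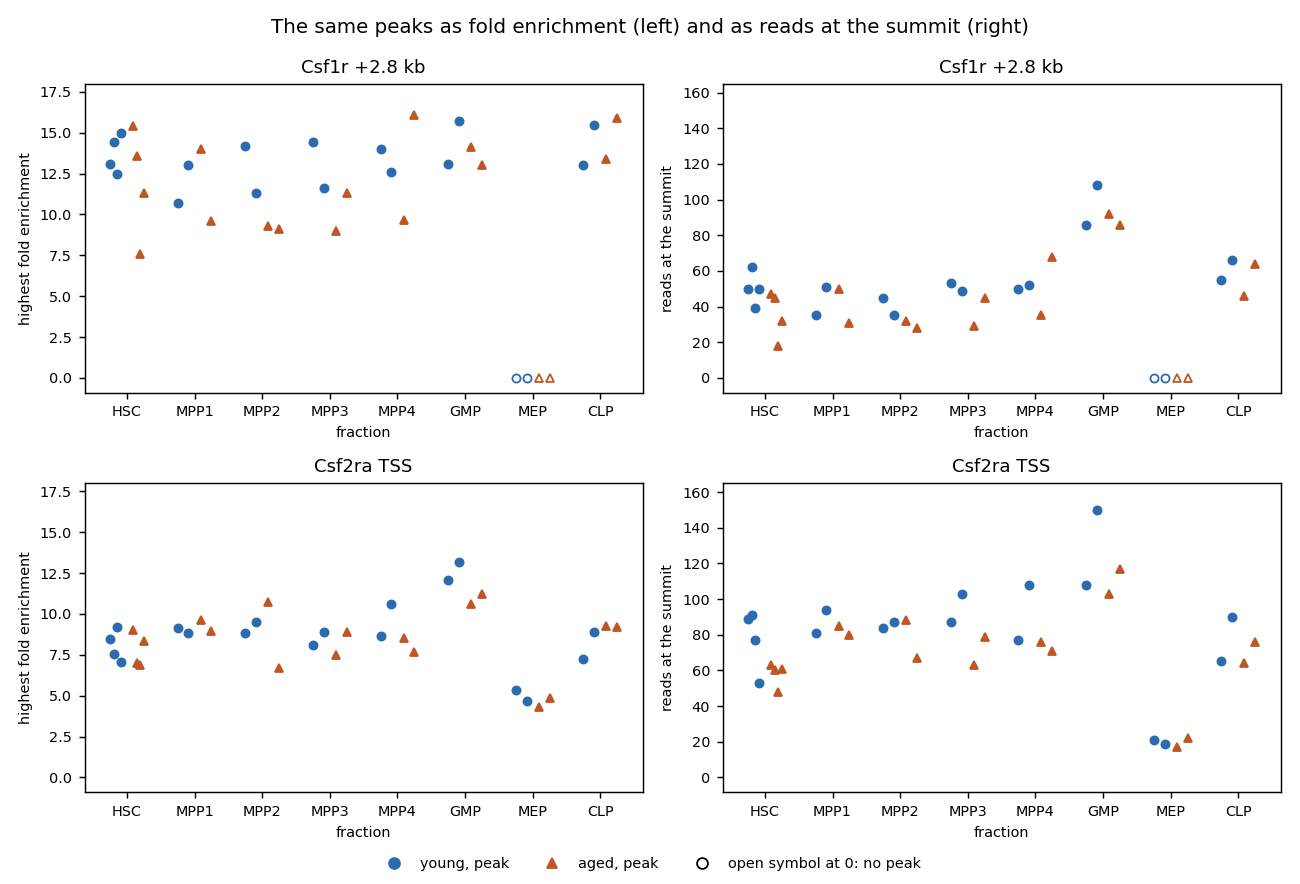
Csf1r +2.8 kb and the Csf2ra TSS by fraction, as highest fold enrichment (left) and as reads at the summit (right), with 1 symbol per library, circles for young and triangles for aged libraries. Open symbols at 0 are libraries without a peak. At Csf1r +2.8 kb the GMP libraries lie among the others in fold enrichment and above them in reads, at 86 to 108.

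Upstream of Csf1r an intergenic region 14.5 kb from the TSS, chromosome 18 from 61090630 to 61091463, had its deepest summits in 3 of the 4 CLP libraries. It had a peak in 30 libraries, those of MEP and 2 of young HSC being the exceptions (adjusted p = 0.00353 for MEP). The fold enrichment in CLP was 10.5 and 12.7 in young and 10.0 and 13.9 in aged libraries, with 51, 62, 28 and 55 reads at the summit in that order. GMP had 8.68 and 7.55 in young and 9.06 and 10.0 in aged libraries, with 20 to 28 reads. MPP4 came next to CLP, at 12.4 and 10.9 in young and 8.82 and 10.2 in aged libraries. The ranges of CLP and MPP4 overlapped in fold enrichment, and the lowest CLP library equalled the highest of GMP to the digits given. In reads the lowest CLP library equalled the highest of GMP as well, and CLP did not pass the test of calls at this region.

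The remaining regions of Csf1r each had a peak in GMP. In intron 11, 14.9 kb from the TSS, GMP had 20.0 and 21.8 in young and 17 and 19.9 in aged libraries, while 13 of the 32 other libraries had a peak, at 4.40 to 8.75, and the test of calls for GMP was not passed (adjusted p = 0.0928). In the 3′-UTR, 25.7 kb from the TSS, GMP had 17.6 and 19.1 in young and 26.9 and 19.6 in aged libraries, against 5.81 to 7.48 in 4 other libraries (adjusted p = 0.00485). At both regions all GMP libraries stood far above the rest. The region 19.2 kb upstream had a peak in the 4 GMP libraries alone, at 9.38 to 11. The last 3 regions had a peak in 1 aged GMP library each and were not tested, and of these the one 28.2 kb upstream lay in an intron of Pdgfrb and the one 26.3 kb downstream in a coding exon of Hmgxb3.

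Among genes whose TSS regions were compared over the 36 libraries, with 0 for a library without a peak, those most like Csf1r were Ang, Lipn and Gm21188 (Pearson's r of 1.00 each), and 81 of 13177 genes had an r of at least 0.95 with it. The closest to Csf3r was Gpr146 (r = 0.81), followed by Zcchc7 and Ywhah (0.79 each). Parp2 (0.93), Samd9l (0.92) and Arl5b (0.92) came closest to Csf2ra, Glis1 (0.92), C3ar1 and 2310011J03Rik (0.89 each) to Csf2rb, and Dcp1b (0.83), Gm45717 and Ifitm2 (0.81 each) to Csf2rb2. These are descriptions over libraries that share their differences in peak number.

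Fold enrichment itself was compared with HSC by limma, at regions with a peak in every library of both fractions. GMP was higher at 2 of the 3 receptor regions tested, where 67.6% of all regions were higher and the median difference of all regions was 0.53 on the log2 scale. At Csf2rb2 27.1 kb downstream the log2 difference was 0.80 ± 0.16 (SE, adjusted p = 1.30e-04), at the Csf2ra TSS it was 0.57 ± 0.14 (adjusted p = 8.58e-04) and at Csf1r 2.81 kb downstream it was 0.14 ± 0.15 (adjusted p = 0.408). This last value ranged from 0.04, without aged HSC replicate 3, to 0.21, without young GMP replicate 1. Relative to each library's median, the differences were 0.24, 0.01 and −0.42, and in summit reads divided by fragment length, for which the narrowest peak of a library stood in (132 to 139 bp in GMP and 179 to 191 bp in HSC), they were 1.19, 1.28 and 1.62 beside a median of 1.16. The order of Csf1r and the others therefore turned with the scale.

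MEP was lower than HSC at the 1 receptor region tested, the Csf2ra TSS, by a log2 difference of −0.73 ± 0.13 (SE, adjusted p = 1.23e-05, limma). Of all regions 86.3% were lower, with a median of −0.68, relative to each library's median the difference was 0.01, and in summit reads over fragment length it was −1.71 (adjusted p = 3.81e-17, limma) beside a median of −0.93. CLP differed from HSC at 0 of 2 receptor regions (20.8% of all regions differed). MPP1 differed at 0 of 3 (0.00598%), MPP2 at 0 of 3 (3.22%), MPP3 at 0 of 2 (8.97%) and MPP4 at 0 of 2 (12.6%). Over these 5 fractions 1 receptor difference had an unadjusted p under 0.05, at Csf2rb2 27.1 kb downstream in MPP1, with a log2 difference of 0.43 ± 0.16 (adjusted p = 0.356).

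No receptor region passed a test by age. The 18 young libraries together had 168 calls in the 34 regions and the 18 aged libraries 162. An exact conditional test stratified by fraction found 0 of 27 regions different by age, as it did 0% of all 79066 regions, and 0 of the 27 had an unadjusted p under 0.05. The lowest unadjusted p was 0.143, at Csf1r 1.98 kb from the TSS, with a peak in 8 young and 4 aged libraries, followed by 0.149 at Csf1r 14.9 kb from the TSS, with 11 young and 6 aged libraries. The region in intron 3 of Csf3r, 0.894 kb from the second start, went the other way, with 1 young and 4 aged libraries (exact p = 0.25).

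By fold enrichment the ages were compared within each fraction with limma. In HSC 0 of 3 receptor regions passed (0.0115% of all regions did), and in the other fractions 0 passed of 17 in GMP, 7 each in MPP2 and MPP3, 6 in MPP1, 5 each in MPP4 and CLP and 1 in MEP, as did 0% of all regions in each. Of these 51 comparisons 1 had an unadjusted p under 0.05. It was Csf2rb2 27.1 kb downstream in GMP, where both aged libraries, 18.8 and 20.9, lay above both young ones, 12.0 and 14.1, a log2 difference of 0.61 ± 0.18 (SE, unadjusted p = 0.00503, adjusted p = 0.809, limma). In HSC the difference at Csf1r 2.81 kb downstream was −0.25 ± 0.19 (adjusted p = 0.838), or −0.04 without aged HSC replicate 3 and −0.39 without aged HSC replicate 1, and in summit reads over fragment length it was −0.55 (unadjusted p = 0.0337, adjusted p = 0.343, limma). In CLP the difference at Csf3r 5.41 kb upstream was 0.52 ± 0.27 (adjusted p = 0.999), and 0.34 to 0.71 when each CLP library was left out. The difference between ages was also compared between HSC and each of the other 7 fractions, and 0 receptor regions passed in any, as did 0% of all regions tested.

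The other genes of the pathway were read at their TSSs from fixed lists. Of 6 ligand genes, the TSS of Csf1, encoding M-CSF, had a peak in 33 libraries and was called less often in MEP, that of Csf2, encoding GM-CSF, had one in 10 libraries, and those of Il34, Csf3, Il3 and Il5 in none. Of the alpha chains that pair with Csf2rb, Il3ra had a TSS peak in all 36 libraries and Il5ra in 3, 1 each of MPP2, MPP3 and GMP. All 21 signalling genes downstream of the receptors, among them the Jak and Stat genes and the Src family kinases, had a TSS peak somewhere, and 9 of them had one in every library. Of the 10 that could be tested, Lyn, Syk, Ptpn6, Inpp5d, Socs1, Socs3 and Cish were called less often in MEP, where 14.1% of all tested regions were. Of 10 other cytokine receptor genes, 9 had a TSS peak, 6 could be tested, Il7r and Tnfrsf1a were called more often in GMP (37.8% of all tested regions were), and Flt3, Il6ra and Il1r1 less often in MEP (14.1%).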

How the data were processed

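ATAC-seq libraries were made from 20000 sorted cells each, size-selected at 240 to 360 bp and sequenced as single reads of 60 bp. Per the submitters' processing notes, the authors used Bowtie2, SAMtools, MACS2 2.2.6 and mm10, and their methods state that mapped reads were subsampled to the same number in all samples before peaks were called in each sample. The deposited peak lists give a fold enrichment (a ratio to local background) at each summit, with −log10 p and −log10 q values. Read totals were not given in these files, so counting intervals were not computed. Summit pileups, solved from the deposited fold enrichment and −log10 p, came out whole within 0.05 in 99.985 to 100.0% of peaks, and whole numbers of reads give the depth behind each value.

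Regions were merged, assigned to GENCODE protein-coding TSSs and scored in each library with Python 3.11.15, SciPy 1.17.1 and NumPy 2.4.6. A region without a peak has no fold enrichment, so calls were tested by exact tests and log2 fold enrichment by limma 3.58.1 in R 4.3.3 (trend, age as covariate between fractions) only at regions called in every library compared. Benjamini-Hochberg adjustment ran over all regions tested, with a threshold of 0.05, and both steps were tested on simulated data. Named in the text were regions at a TSS, up to 6 regions per gene called in the most libraries, and any region passing a test. The members and gene lists were chosen with earlier results of these data known. Promoters of Csf1r and Csf2rb were not analysed here, and the results of some list genes are not reported here. Alternatives covered the peak threshold, equal peak numbers, overlap, biotypes, centring, summit reads, each age alone, a replicate block and leaving out each library.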

Additional observations from a re-analysis of the deposited data

How the results depend on the processing

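The number of receptor regions fell from 34 to 10 when an equal number of peaks was taken from each library, and to 22 when TSSs of every biotype competed for a region. Of regions called more often in GMP, 15 became 3 with equal peak numbers, 8 in young libraries alone and 6 in aged libraries alone, and 12 to 15 when each library was left out in turn. Of regions called less often in MEP, 5 became 3 with −log10 q of at least 10, 1 with equal peak numbers, 3 when a peak had to cover most of the region, 0 in young libraries alone and 0 in aged libraries alone, and 3 to 5 with each library left out, the lower counts coming without any 1 of the 4 MEP libraries. The 1 region called more often in CLP became 0 with −log10 q of at least 10, with all regions tested and in either age alone, and 0 to 1 with each library left out, with 0 without any 1 of the 4 CLP libraries. Leaving out the 4 MEP libraries, chosen after seeing the data, gave 2 regions called less often in CLP in place of 0. In the other fractions and directions 0 became 1 when a peak had to cover most of the region, and 0 to 1 with each library left out, with 1 without young MPP2 replicate 2, young MEP replicate 1 or either aged MPP2 library. Fewer libraries in each age and fewer peaks give these tests less to work with, and the causes of the other changes were not tested. Shares of all regions are not given for these alternatives, so the changed counts cannot be set against all regions.

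Centred on each library's median, the regions higher in GMP than in HSC went from 2 to 0 and those lower from 0 to 1, since Csf1r 2.81 kb downstream turned from 0.14 to −0.42 on the log2 scale (adjusted p = 0.0248, limma). The 1 region lower in MEP than in HSC went to 0, as the Csf2ra TSS turned from −0.73 to 0.01 (adjusted p = 0.973, limma). In summit reads over fragment length 1 region was higher in CLP than in HSC in place of 0, as were 2531 of all 12325 regions tested. On that scale 3 were higher in GMP in place of 2, as were 10618 of all 13884. The added region in GMP was Csf1r 2.81 kb downstream, at 1.62 (adjusted p = 1.85e-11, limma). Leaving out each library gave 2 to 3 regions higher in GMP, and 0 to 1 higher in MPP3 than in HSC, with 1 without young MPP3 replicate 1 or aged HSC replicate 1. Of 157 values under alternatives 132 were rated the same, 20 moved, 2 weaker, 1 stronger and 2 reversed. Of 508 with a library left out 494 were rated the same and 14 moved. A count of regions was rated the same when it was equal or close to the main count. A difference was rated the same when it stayed on its side of the threshold and no called direction was reversed.

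The labels do not say what a replicate number marks, and the numbers were not taken to pair the libraries: over the 5335 regions called in all 36, deviations from the group means correlated at −0.10 to 0.24 between same-numbered young and aged libraries (18 pairs), and at −0.10 to 0.13 in the 4 HSC pairs. With the replicate block 0 receptor regions differed by age in each fraction and by calls, 1 was lower in MEP than in HSC, and 3 of 4 were higher in GMP than in HSC. That block used HSC replicates 1 and 2 only, which let the Csf2rb TSS enter the test as the added region, while Csf1r 2.81 kb downstream stayed uncalled at −0.02 (adjusted p = 0.910, limma). The share of all regions called under the block is not given here. Without the block 67.6% of all regions were higher in GMP than in HSC and 86.3% lower in MEP. With 2 libraries per age outside HSC and summits as low as 6 to 8 reads, small differences may have been missed.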
